A study of Mus musculus with 3 samples.

Results

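The genes of transforming growth factor beta (TGF beta) signalling described here were the ligands Tgfb1, Tgfb2 and Tgfb3, the receptors Tgfbr1, Tgfbr2 and Tgfbr3, the latent binding proteins Ltbp1, Ltbp2 and Ltbp3, and the TGF beta induced matrix gene Tgfbi. They were chosen by symbol and are 10 of the 32285 genes of the count matrices. Spatial gene expression was measured in skin wounds of C57BL/6J mice at 3, 7 and 14 days after injury (Day 3, Day 7 and Day 14), in 1 fresh frozen section per day and no unwounded section. The wounds were full-thickness punch excisions of the back skin of adult male mice without a labelled genetic change or treatment. On a Visium slide, each spot captures polyadenylated RNA from a small area that can hold several cells, and each captured molecule is counted once through its unique molecular identifier (UMI).

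TGF beta ligands are secreted in a latent form, held by their own propeptide and tethered to the matrix by latent TGF beta binding proteins. Once released by integrins or proteases, a ligand binds the type II receptor (Tgfbr2), which recruits and phosphorylates the type I receptor (Tgfbr1). The type III receptor (Tgfbr3, betaglycan) presents ligand, in particular Tgfb2, to the type II receptor. In healing skin the pathway is known for driving fibroblasts to make matrix, for contraction and for restraining keratinocyte growth.

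The sections held 664, 549 and 697 spots marked as under tissue on Day 3, Day 7 and Day 14, with 1772259, 4442962 and 4611723 UMIs. The Day 3 section was the shallowest, with a median of 1513 UMIs per spot and 144 spots under 500 UMIs, against 10 and 8 such spots on Day 7 and Day 14. Marked spots carried 51.0%, 40.8% and 49.4% of the UMIs of their slides, so that much of the captured RNA lay in spots not marked as under tissue. The tissue label was skin, and the summed level of 10 epidermal keratin and junction genes was 8127, 4045 and 10813 CPM (UMIs of a gene or list per 1000000 UMIs). The summed level of 10 skeletal muscle genes was higher in each section, at 37504, 51411 and 58080 CPM. With 1 section per day there is no replicate check, no test was made, and each 95% interval below covers counting error only.

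Among the ligands, the sections differed in which gene gave most of the molecules. Tgfb1, the ligand best known from platelets and macrophages, had a level of 82.9 CPM (147 UMIs) in the Day 3 section, 50.6 CPM (225 UMIs) in the Day 7 section and 35.1 CPM (162 UMIs) in the Day 14 section. Its level was lower in each later section, at 0.611-fold on Day 7 against Day 3 (95% interval 0.494 to 0.757) and 0.694-fold on Day 14 against Day 7 (0.563 to 0.853). Tgfb3, a ligand known from embryonic wound repair and palate fusion, stood at 11.3 CPM (20 UMIs), 84.6 CPM (376 UMIs) and 25.6 CPM (118 UMIs) in order of day. The Day 7 level was 7.50-fold the Day 3 level (4.79 to 12.4), the highest ratio among the 10 genes, and the Day 14 level was 0.302-fold that of Day 7 (0.244 to 0.373). On the log2 scale the Tgfb3 ratio of Day 7 over Day 3 was 2.91 (2.26 to 3.63). Over the alternative settings it ranged from 2.15 to 3.55. It was lowest with all spots of the slide, at 56.3 against 12.7 CPM. Tgfb2 was also highest on Day 7, at 34.7 CPM (154 UMIs) against 17.5 CPM on Day 3 (31 UMIs) and 15.4 CPM on Day 14 (71 UMIs). Its ratio was 1.98 for Day 7 over Day 3 (1.34 to 3.02) and 0.444 for Day 14 over Day 7 (0.330 to 0.592), and the interval for Day 14 over Day 3 held 1 (0.880, 0.570 to 1.39). In pooled sections, fewer cells of a type and less RNA per cell cannot be told apart.

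Several cell type lists had the same order of days as a ligand. Over Day 3, Day 7 and Day 14, pericyte genes (538, 765 and 419 CPM) were highest on Day 7. So were Col1a1, Col1a2 and Col3a1 in sum (47374, 63502 and 34159.5 CPM). Resting fibroblast genes (5770, 4828 and 3866 CPM) were lower in each later section. Epidermal, hair follicle and muscle genes were instead highest on Day 14. The summed level of 10 macrophage genes was 4239, 2727 and 1050 CPM on Day 3, Day 7 and Day 14, and 10 of 10 of them were at least 1.5-fold lower on Day 14 than on Day 3. The summed level of 10 neutrophil genes was 2374, 165 and 108 CPM, and of its markers Retnlg and Trem1 were at 0 on Day 7 and Trem1 on Day 14. The summed level of 10 granulation tissue genes, among them Postn, Tnc and Acta2, was 1351, 8787 and 1751 CPM, with 10 of 10 at least 1.5-fold higher on Day 7 than on Day 3 and 10 of 10 lower on Day 14 than on Day 7. Per 1000 macrophage list UMIs, Tgfb1 had 19.6 (16.5 to 23.0), 18.6 (16.2 to 21.2) and 33.5 UMIs (28.4 to 39.1) in order of day. Per 1000 granulation list UMIs, Tgfb3 had 8.35 (5.09 to 12.9), 9.63 (8.68 to 10.7) and 14.6 UMIs (12.1 to 17.5). With the lists exchanged, Tgfb3 had 2.66, 31.0 and 24.4 UMIs per 1000 macrophage list UMIs, and Tgfb1 had 61.4, 5.76 and 20.1 UMIs per 1000 granulation list UMIs. These scales were chosen after the levels were seen, and the order of the days differed with the list used. The part of changing cell numbers in the ligand levels was not tested.

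**Figure D1:**
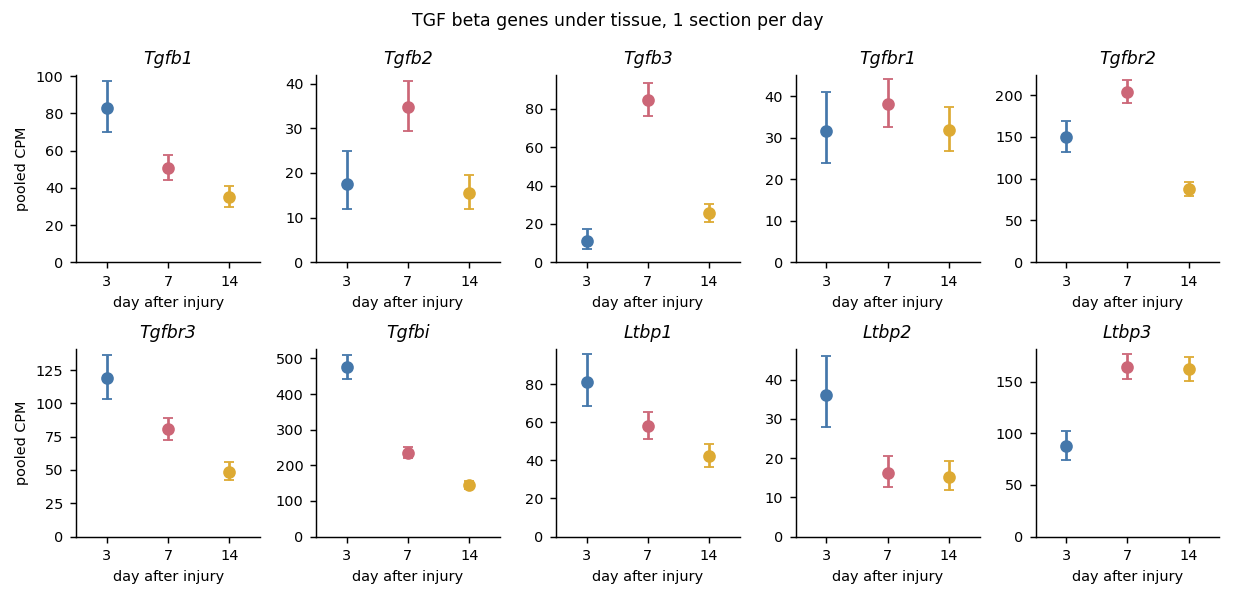
Pooled CPM of each of the 10 genes (y axis, own scale per gene, starting at 0) by day after injury (x axis), 1 section per day, with exact Poisson 95% intervals as bars. Tgfb3 stands out at 84.6 CPM on Day 7 between 11.3 and 25.6 CPM, while Tgfbi and Tgfb1 are highest on Day 3.

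The changes turned the order of the ligands over. On Day 3, Tgfb1 gave 74.2% of the 198 ligand UMIs (95% Clopper-Pearson interval 67.6 to 80.2), Tgfb2 gave 15.7% (10.9 to 21.5) and Tgfb3 gave 10.1% (6.28 to 15.2). On Day 7, Tgfb3 gave 49.8% of 755 ligand UMIs (46.2 to 53.4) and Tgfb1 gave 29.8% (26.6 to 33.2). On Day 14, Tgfb1 was again ahead with 46.2% of 351 ligand UMIs (40.8 to 51.5), and Tgfb3 gave 33.6% (28.7 to 38.8). The share of Tgfb2 was similar on the later days, at 20.4% on Day 7 (17.6 to 23.5) and 20.2% on Day 14 (16.1 to 24.8). These are shares of captured 3′ ends, which need no length scaling, and capture efficiency between transcripts was not corrected.

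The crossing of Tgfb1 and Tgfb3 was also present in the spots that were not marked as under tissue. There Tgfb1 gave 59.6% of 99 ligand UMIs on Day 3, 33.5% of 537 on Day 7 and 37.5% of 323 on Day 14. Tgfb3 gave 24.2%, 44.3% and 31.3% of the same totals. The Tgfb3 share of these spots on Day 3 (16.2 to 33.9) was above that under tissue. On Day 7 the shares were near equal within the section, with Tgfb3 at 50% in collagen-rich spots and 49.7% in the other spots.

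**Figure D2:**
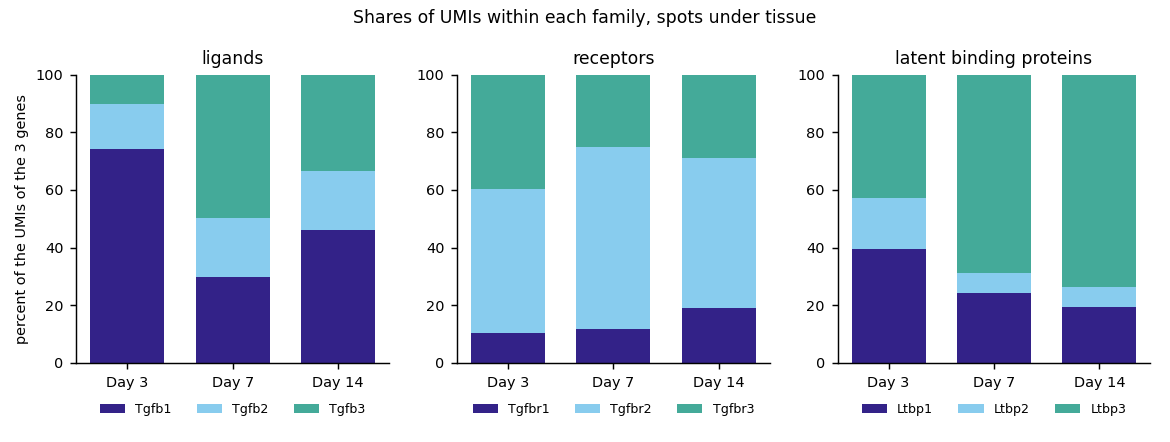
Stacked bars of the percent of UMIs (y axis, 0 to 100) that each gene gave within the 3 ligands, the 3 receptors and the 3 latent binding proteins, by day (x axis), spots under tissue. Tgfb3 widens from 10.1% to 49.8% of ligand UMIs between Day 3 and Day 7, and Ltbp3 from 42.7% to 68.9% of latent binding protein UMIs.

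To show how the starts of ligand genes differ, the 250 bases before the RefSeq start sites of Tgfb1 and Tgfb2 are given, 5′ to 3′ on the strand of each gene, in build GRCm38.p6. Capitals mark a GC box (GGGCGG, either strand) in Tgfb1 and a TATA box (TATAAA, either strand) in Tgfb2. Tgfb1 is on the plus strand and Tgfb2 on the minus strand.
Tgfb1, chr7:25686752-25687001: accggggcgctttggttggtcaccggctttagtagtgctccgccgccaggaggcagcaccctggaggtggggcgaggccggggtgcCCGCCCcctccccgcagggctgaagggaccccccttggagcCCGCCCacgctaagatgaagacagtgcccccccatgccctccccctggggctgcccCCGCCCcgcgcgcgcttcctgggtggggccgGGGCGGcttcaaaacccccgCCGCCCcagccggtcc
Tgfb2, chr1:186705990-186706239: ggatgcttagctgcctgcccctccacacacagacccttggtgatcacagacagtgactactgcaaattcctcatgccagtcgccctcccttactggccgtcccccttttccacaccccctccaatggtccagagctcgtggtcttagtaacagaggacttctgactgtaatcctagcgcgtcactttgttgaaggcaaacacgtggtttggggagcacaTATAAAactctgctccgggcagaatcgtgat
In the 300-base window that runs 50 bases past the start, Tgfb1 held 6 GC boxes, of which 5 lie in the stretch shown, and no TATA box. At least 6 GC boxes were present in 1.35% of all 32851 promoters of the table, and at least 1 in 35.7%. The Tgfb2 window held no GC box and a TATA box that begins at position -31 from the start site, a motif present in 13.6% of all promoters. The windows were 77% and 54.3% G and C. Promoters were matched for 8 of the 10 genes, all except Tgfb3 and Tgfbr3. Of the other motifs searched on both strands, AP-1 (TGANTCA, in 7.81% of promoters) was found in Ltbp3 at position -6, CRE (TGACGTCA, in 1.79%) in 1 of the Ltbp1 promoters at position -73, and the palindromic SMAD motif (GTCTAGAC, in 0.213%) in none. These matches describe the letters only.

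Among the receptors, Tgfbr2 was highest on Day 7 and Tgfbr3 on Day 3, while the levels of Tgfbr1 did not part beyond counting error. Tgfbr2, the ligand-binding type II receptor (chromosome 9, 116084293 to 116175360, minus strand, GRCm38), was at 150.1 CPM on Day 3 (266 UMIs), 204 CPM on Day 7 (907 UMIs) and 87.4 CPM on Day 14 (403 UMIs). Its ratio was 1.36 for Day 7 over Day 3 (1.19 to 1.57) and 0.428 for Day 14 over Day 7 (0.380 to 0.482). Tgfbr1, the signalling type I receptor, was at 31.6 CPM (56 UMIs), 38.0 CPM (169 UMIs) and 31.9 CPM (147 UMIs). Each of its ratios between days had an interval that held 1, with Day 7 over Day 3 at 1.20 (0.885 to 1.66). Tgfbr3, the betaglycan co-receptor, was highest on Day 3 and lower in each later section, at 119, 80.6 and 48.8 CPM (211, 358 and 225 UMIs). Its Day 14 level was 0.410-fold the Day 3 level (0.338 to 0.497).

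Within the receptor UMIs, Tgfbr2 gave the most on each day, with 49.9% of 533 on Day 3, 63.2% of 1434 on Day 7 and 52.0% of 775 on Day 14. The share of Tgfbr3 was 39.6%, 25% and 29.0%. Tgfbr1 gave 10.5% (8.03 to 13.4), 11.8% (10.2 to 13.6) and 19.0% (16.3 to 21.9). The Day 14 share of Tgfbr1 was thus above both earlier days, in a section where its own level was near that of Day 3 and the levels of Tgfbr2 and Tgfbr3 were lower.

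Ltbp3 parted from the other latent binding proteins. Ltbp3, needed for latent TGF beta secretion in bone, was at 87.5 CPM on Day 3 (155 UMIs), 164 CPM on Day 7 (730 UMIs) and 162 CPM on Day 14 (747 UMIs). It was 1.88-fold higher on Day 7 than on Day 3 (1.58 to 2.25), and Day 14 over Day 7 was 0.986 (0.889 to 1.09). Taking the mean of spot CPM over all marked spots turned its direction, at -0.081 on the log2 scale for Day 7 over Day 3 and -0.097 in the Day 14 over Day 3 ratio. On Day 3 only 2 Ltbp3 UMIs were in spots under 500 UMIs, 1 of them in a spot with 16 UMIs in all, and with spots of at least 500 UMIs the mean of spot CPM was 76.6, 152 and 149.6.

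Ltbp1, which anchors latent ligand to fibronectin and fibrillin fibres, was at 81.3, 58.1 and 42.3 CPM (144, 258 and 195 UMIs). Its Day 14 level was 0.520-fold the Day 3 level (0.417 to 0.650). Ltbp2, a fibrillin-binding member that does not bind latent TGF beta, was at 36.1, 16.2 and 15.2 CPM (64, 72 and 70 UMIs), with Day 7 at 0.449-fold Day 3 (0.316 to 0.639). Ltbp3 gave 42.7% of 363 latent binding protein UMIs on Day 3, 68.9% of 1060 on Day 7 and 73.8% of 1012 on Day 14, while Ltbp1 gave 39.7%, 24.3% and 19.3%. On Day 3 the intervals of Ltbp3 (37.6 to 48.0) and Ltbp1 (34.6 to 44.9) overlapped, and on the later days Ltbp3 was ahead beyond its interval. In the unmarked spots of Day 3 the Ltbp3 share was already 62.5% of 176 UMIs (54.9 to 69.7).

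Tgfbi, a secreted matrix protein that binds collagens and integrins, had the most UMIs of the 10 genes in the Day 3 and Day 7 sections. It was at 475 CPM on Day 3 (842 UMIs), 235 CPM on Day 7 (1046 UMIs) and 145 CPM on Day 14 (668 UMIs). Each step was down, at 0.496-fold for Day 7 over Day 3 (0.452 to 0.543) and 0.615-fold for Day 14 over Day 7 (0.557 to 0.679). The summed macrophage list was likewise highest on Day 3, and its part in the Tgfbi level was not tested.

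A gene was counted as higher or lower where its CPM differed at least 1.5-fold and it had at least 50 UMIs over the sections compared. For Day 7 over Day 3, 3 of 10 members were higher (Tgfb2, Tgfb3 and Ltbp3), against 19.5% of the 10541 genes with enough UMIs, and 3 were lower (Tgfb1, Tgfbi and Ltbp2), against 15.5%. When CPM was instead averaged over spots, none of these 3 was at least 1.5-fold lower, and the 1 member lower was Tgfbr1, by 1 UMI in a Day 3 spot of 8 UMIs. For Day 14 over Day 7, 0 of 10 were higher, against 23.4% of 11746 genes, and 5 were lower (Tgfb2, Tgfb3, Tgfbr2, Tgfbr3 and Tgfbi), against 15.3%. For Day 14 over Day 3, 2 were higher (Tgfb3 and Ltbp3), against 28.4% of 10955 genes, and 6 were lower (Tgfb1, Tgfbr2, Tgfbr3, Tgfbi, Ltbp1 and Ltbp2), against 14.3%. The median log2 ratio of the members was -0.11, -0.61 and -0.86 in the same order, and that of all genes counted was 0.04, 0.13 and 0.18. These comparisons share sections, so their values are not independent. With all spots of the slide, marked or not, 2 members were lower on Day 14 than on Day 7.

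A wider list of 49 pathway genes was counted by the same rule. For Day 7 over Day 3, 17 were higher and 7 lower of 46 with enough UMIs, against 19.5% and 15.5% of all genes counted. For Day 14 over Day 7, 10 were higher and 24 lower of 49, against 23.4% and 15.3%, and for Day 14 over Day 3, 13 were higher and 13 lower of 49, against 28.4% and 14.3%. The median log2 ratio of the list was 0.33, -0.50 and -0.06, beside 0.04, 0.13 and 0.18 for all genes counted. The counts by role below read against the same shares.

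The genes of latency and matrix storage were mostly highest on Day 7, with 4 of 6 higher than on Day 3 and 4 of 6 lower on Day 14 than on Day 7. Fbn2, a fibrillin of elastic microfibrils, had a level of 21.4, 110 and 39.2 CPM in order of day. Emilin1, an elastic fibre protein that restrains TGF beta maturation, was 0.212-fold on Day 14 against Day 7. Nrros, which tethers latent Tgfb1 on myeloid cells, was 0.494-fold on Day 7 against Day 3. Ltbp4, the remaining latent binding protein, was 1.15-fold on Day 14 against Day 7, the highest ratio of its group.

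The genes that release active ligand split between sections, with 4 higher and 2 lower of 11 for Day 7 over Day 3 and 2 higher and 7 lower of 13 for Day 14 over Day 7. Thbs1, thrombospondin 1, which can activate latent Tgfb1, was at 445 CPM on Day 3 and 49.7 CPM on Day 7, a ratio of 0.112. Plat, tissue plasminogen activator, was 4.61-fold on Day 7 against Day 3 and 0.167-fold on Day 14 against Day 7. Itgb6, the epithelial integrin subunit that activates latent ligand, was 2.48-fold on Day 14 against Day 7. In the same step, 10 of 10 epidermal genes were also higher.

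Of 4 co-receptors, none was higher and 1 was lower on Day 7 than on Day 3, and 1 was higher and 3 were lower on Day 14 than on Day 7. Nrp1, neuropilin 1, was 0.269-fold on Day 7 against Day 3, and Eng, endoglin of endothelium, was 0.350-fold on Day 14 against Day 7, a step in which 9 of 10 endothelial genes were lower. Cd109, which restrains signalling in keratinocytes, was 1.13-fold on Day 7 against Day 3 and 1.63-fold on Day 14 against Day 7. Among intracellular genes, 2 were higher and 1 lower of 11 for Day 7 over Day 3, and 4 higher and 2 lower of 12 for Day 14 over Day 7. Pmepa1, a target that feeds back on the pathway, was 3.28-fold on Day 7 against Day 3 and 0.389-fold on Day 14 against Day 7. Smurf2, a ubiquitin ligase of the receptor complex, was 0.651-fold on Day 7 against Day 3, and the inhibitory Smad6 was 1.79-fold on Day 14 against Day 7.

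Of 4 extracellular binders and decoys, 2 were higher and 0 lower on Day 7 than on Day 3, and 2 higher and 1 lower on Day 14 than on Day 7. Bgn, biglycan, was 3.13-fold on Day 7 against Day 3 and 0.307-fold on Day 14 against Day 7, while Dcn, decorin, was 0.714-fold on Day 7 against Day 3. Bambi, a decoy receptor, was 4.19-fold on Day 14 against Day 7. Of 10 genes known as targets, 5 were higher and 2 lower on Day 7 than on Day 3, and 1 higher and 7 lower on Day 14 than on Day 7. Postn, periostin, was at 240 CPM on Day 3 and 3692 CPM on Day 7, a ratio of 15.4, and 0.149-fold on Day 14 against Day 7. Ccn2, connective tissue growth factor, was 2.43-fold on Day 14 against Day 7. Postn, Acta2, Tagln and Fn1 stand in both the target list and the granulation list.

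Place within each section was read against collagen. Collagen-rich spots were the top 20% of marked spots with at least 500 UMIs by the share of UMIs from Col1a1, Col1a2 and Col3a1, which gave 104, 108 and 138 spots on Day 3, Day 7 and Day 14. Their median collagen share was 8.78%, 7.94% and 5.88%, against 2.06%, 5.18% and 2.61% in the other spots. They were deeper, with a median of 4753 against 1675.5 UMIs on Day 3, 13011.5 against 5137 on Day 7 and 5596 against 4670 on Day 14. In collagen-rich against other spots, resting fibroblast genes differed by 0.95, 0.14 and 0.51 on the log2 scale, granulation genes by 0.06, 0.83 and 1.10, and macrophage genes by 0.15, 0.62 and 0.92.

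Tgfbr2, Tgfbr3 and Tgfbi were higher in collagen-rich spots on each day with intervals above 0. Tgfbr2 was at 231, 264 and 141 CPM in the collagen-rich spots of Day 3, Day 7 and Day 14, and at 116, 172 and 74.8 CPM in the other spots. On the log2 scale these differences were 0.99 (0.63 to 1.35), 0.62 (0.42 to 0.81) and 0.91 (0.60 to 1.22). Tgfbr3 differed by 0.86 (0.45 to 1.26), 0.51 (0.20 to 0.82) and 0.82 (0.38 to 1.24). Tgfbi was at 692, 321 and 205 CPM in collagen-rich spots and at 385, 190.2 and 131 CPM in the other spots, differences of 0.85, 0.76 and 0.64. Tgfbr1 did not share this placing, at -0.37 (-1.36 to 0.53), 0.14 (-0.33 to 0.61) and -0.13 (-0.81 to 0.49).

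Among the ligands with enough UMIs, intervals lay above 0 for Tgfb3 on Day 7 and for Tgfb1 and Tgfb3 on Day 14. Tgfb1 was at 78.1 CPM in collagen-rich and 86.3 CPM in other spots on Day 3, a difference of -0.14 (-0.70 to 0.39). It differed by 0.32 (-0.08 to 0.71) on Day 7 and by 0.75 (0.22 to 1.25) on Day 14. Tgfb3 differed by 0.34 on Day 7 (0.03 to 0.64) and by 0.72 on Day 14 (0.09 to 1.31). Tgfb2 had 18 UMIs in collagen-rich and 13 in other spots on Day 3, a difference of 1.65 (0.54 to 2.80) below the 50-UMI minimum, and on the later days its intervals held 0.

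Ltbp1 changed sides. It was at 158 CPM in collagen-rich and 46.8 CPM in other spots on Day 3, at 46.5 and 64.2 CPM on Day 7, and at 65.9 and 36.7 CPM on Day 14. The differences were 1.76 (1.25 to 2.27), -0.47 (-0.88 to -0.07) and 0.84 (interval from 0.37 up), so that the Day 7 interval lay below 0 and the others above it. The difference between days itself was not tested. Ltbp2 differed by 1.09 (0.33 to 1.84), -0.16 (-0.94 to 0.58) and 1.05 (0.27 to 1.80). Ltbp3 differed by 1.16 (0.68 to 1.64) on Day 3 and by 0.16 and 0.20 on Day 7 and Day 14, where its intervals held 0.

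By the 1.5-fold rule, 6 of 8 counted members, without Tgfb2 and Tgfb3 for their few UMIs, were higher in collagen-rich spots on Day 3, against 12.8% of 5637 genes, and 0 were lower, against 15.7%. On Day 7, 2 of 10 were higher (Tgfbr2 and Tgfbi), against 6.12% of 9422 genes, and 0 were lower, against 12.7%. On Day 14, 7 of 10 were higher, against 8.58% of 10029 genes, and 0 were lower, against 8.54%. The median log2 difference of the members was 0.93, 0.32 and 0.73, and that of all genes counted was -0.02, -0.05 and -0.03. When spots were ranked within 3 depth classes of the section, which brought the median depths to 1888 against 2001, 7329 against 6718 and 5342 against 4737 UMIs, the Day 3 difference of Ltbp1 was 0.96 and its Day 7 difference was -0.65. On Day 7 the same ranking left 1 member higher and 2 lower. Over all alternative settings, the number of members higher ranged from 4 to 6 on Day 3, 1 to 4 on Day 7 and 5 to 7 on Day 14.

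**Figure D3:**
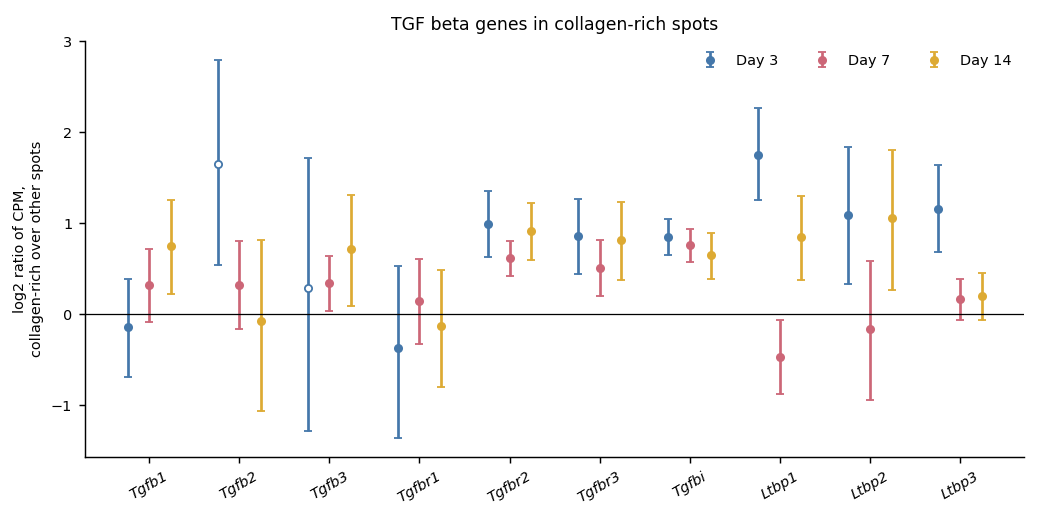
Log2 ratio of CPM in collagen-rich over other spots (y axis) for each gene (x axis) on Day 3, Day 7 and Day 14 (colours), with 95% intervals for counting error as bars and open points where a gene had under 50 UMIs. Tgfbr2, Tgfbr3 and Tgfbi lie above 0 on each day, and Ltbp1 lies at 1.76, -0.47 and 0.84.

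Distance from the nearest collagen-rich spot gave different profiles. On Day 3, Ltbp1 was at 158 CPM in collagen-rich spots, 99.3 CPM at 1 spot pitch, 40.8 CPM at 2 to 3 pitches and 13.3 CPM beyond 3 pitches. Its outermost level rested on 7 UMIs (95% interval 5.36 to 27.5 CPM). Tgfb1 on Day 3 was highest away from collagen, at 138 CPM at 2 to 3 pitches (100 to 185) against 78.1 CPM in collagen-rich spots, 64.4 CPM at 1 pitch and 70.4 CPM beyond 3 pitches. On Day 7, Tgfb3 was at 98.2 CPM in collagen-rich spots and 109 CPM at 1 pitch, and at 54.9 and 50.6 CPM farther out. Tgfbr2 on Day 7 declined through 264, 207, 150.4 and 138 CPM. Ltbp1 on Day 7 was highest at 1 pitch, at 72.1 CPM (58.1 to 88.4), against 46.5 CPM in collagen-rich spots (36.3 to 58.6). On Day 14, Ltbp3 was at 181, 185, 159.6 and 131 CPM, so that the lowest level was beyond 3 pitches (112 to 152). Median spot depth also declined with distance on Day 7, from 13011.5 to 2981 UMIs, and its part in these profiles was not tested.

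**Figure D4:**
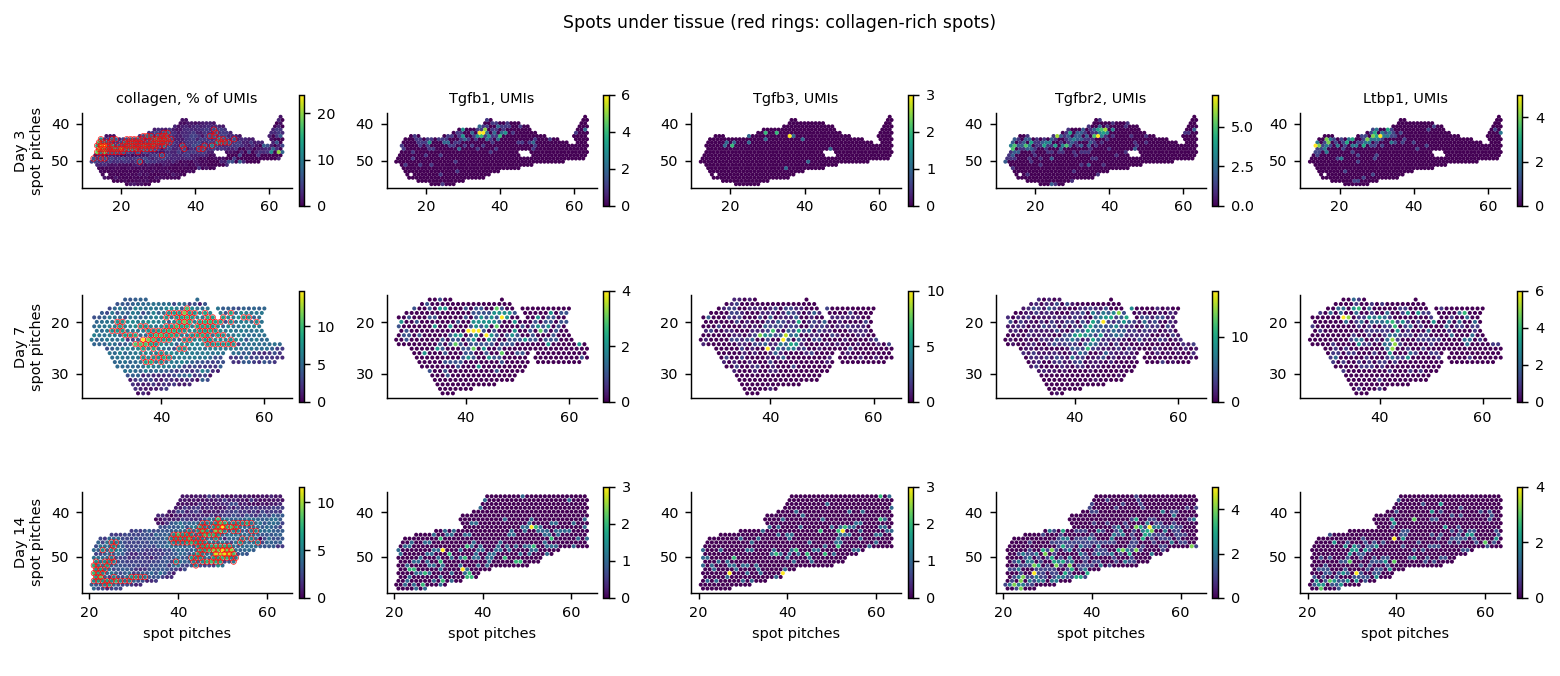
Spots under tissue of the Day 3, Day 7 and Day 14 sections (rows), drawn in units of spot pitch on both axes, with the collagen share of UMIs and the UMIs of Tgfb1, Tgfb3, Tgfbr2 and Ltbp1 per spot as colour (each panel on its own scale from 0), and red rings on collagen-rich spots. Tgfb1 reaches 6 UMIs in a spot on Day 3 in spots that are not collagen-rich, and Tgfb3 reaches 10 UMIs in a spot on Day 7 against 3 on the other days.

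Collagen-rich spots were split at their median share of granulation list UMIs. On Day 14 this share was 0.381% in the upper and 0.151% in the lower part, with median depths of 5612 and 5439 UMIs. Tgfb1 was at 81.7 CPM (36 UMIs) in the upper and 22.8 CPM (10 UMIs) in the lower part, a ratio of 3.58 (1.74 to 8.10), and the intervals of the other 9 genes held 1. On Day 7, Tgfbr1, Tgfbr2 and Tgfbi were higher in the upper part, with ratios of 1.97 (1.08 to 3.79), 1.54 (1.24 to 1.93) and 1.66 (1.36 to 2.04). The median depths there were 16739.5 and 10938 UMIs. On Day 3, the ratio of Ltbp3 was 1.65 (1.02 to 2.66), and the intervals of the other 9 genes held 1.

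Each member was then compared between the 10% of spots richest in a cell type list and the other spots, over 10 lists and 3 days. Of 280 pairs with at least 50 UMIs, 74 had an interval that excluded 0, 39 of them higher and 35 lower in the marker-rich spots, with intervals not adjusted for the number of pairs. Tgfb1 was higher in endothelium-rich spots by 0.92 on Day 3 (0.25 to 1.54) and 0.95 on Day 7 (0.44 to 1.44) on the log2 scale. On Day 14 its endothelium-rich interval held 0, at 0.18 (-0.85 to 1.06). In macrophage-rich spots it differed by 0.40 on Day 3 (-0.38 to 1.10) and 0.43 on Day 7 (-0.07 to 0.91), where the intervals held 0, and by 0.74 on Day 14 (0.01 to 1.41). In granulation-rich spots it was higher by 0.51 on Day 7 (0.07 to 0.94) and 1.33 on Day 14 (0.74 to 1.89). On Day 3 it was also higher in hair follicle-rich spots by 1.13 and in epidermis-rich spots by 0.62. It was lower in resting fibroblast-rich spots by -1.88 (-4.94 to -0.003), with only 2 UMIs there. In fat-rich spots, with 6 UMIs there, it was lower by -1.24 (-2.71 to -0.08). Tgfb2 on Day 7 was higher in endothelium-rich spots by 0.87, in resting fibroblast-rich spots by 0.85 and in pericyte-rich spots by 0.83. In granulation-rich spots of Day 7 it was higher by 0.61 (0.08 to 1.13). Tgfb3 on Day 7 was higher in endothelium-rich spots by 0.67 and in granulation-rich spots by 0.48. In resting fibroblast-rich spots it was lower, by -0.72 (-1.46 to -0.05), where Tgfb2 was higher. On Day 14, Tgfb3 was higher in macrophage-rich spots by 1.02 (0.20 to 1.75) and in granulation-rich spots by 0.86 (0.07 to 1.58). It was lower in epidermis-rich spots by -1.23 (-2.39 to -0.25).

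Tgfbr3 was higher in resting fibroblast-rich spots on each day, by 0.82 (0.01 to 1.53), 0.75 (0.27 to 1.20) and 0.89 (0.19 to 1.53). On Day 14 it was also higher in macrophage-rich spots by 0.95 (0.37 to 1.49) and in granulation-rich spots by 0.76 (0.18 to 1.29). In epidermis-rich spots of Day 14 it was lower, by -0.83. Tgfbr2 was higher in granulation-rich spots by 0.84 on Day 7 and 0.76 on Day 14, and in macrophage-rich spots by 0.55 and 0.97. Granulation-rich spots on Day 7 were deeper, with a median of 17414.5 against 6044 UMIs. Tgfbi on Day 14 was higher in epidermis-rich spots, at 294 against 116 CPM, a difference of 1.34 (1.10 to 1.57), and lower in hair follicle-rich spots by -1.01 (-1.40 to -0.64). Tgfbi was also higher in granulation-rich spots, by 0.88 on Day 7 and by 0.58 on Day 14 (0.25 to 0.90). In macrophage-rich spots it was higher by 0.51 on Day 3 (0.22 to 0.80) and 0.44 on Day 7 (0.22 to 0.66). On Day 14 that interval held 0, at 0.37 (-0.01 to 0.73). Its epidermis-rich difference was 0.25 on Day 3 (0.01 to 0.48), and on Day 7 that interval held 0. In hair follicle-rich spots of Day 14, where the list had 26146 UMIs, the differences of Ltbp1, Ltbp2 and Tgfbr1 were -0.23, -0.19 and 0.38, with intervals that held 0. On Day 3 the list had 369 UMIs, 342 of them from Krt17, with Krt71, Krt25, Krt73 and Shh at 0, and on Day 7 Krt17 gave 465 of its 517 UMIs, so the hair follicle-rich spots of those days were chosen largely by that gene, which keratinocytes at wound edges also express. In muscle-rich spots of Day 14, Ltbp3 was at 26.2 against 168 CPM and Tgfbi at 26.2 against 150.03 CPM.

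**Figure D5:**
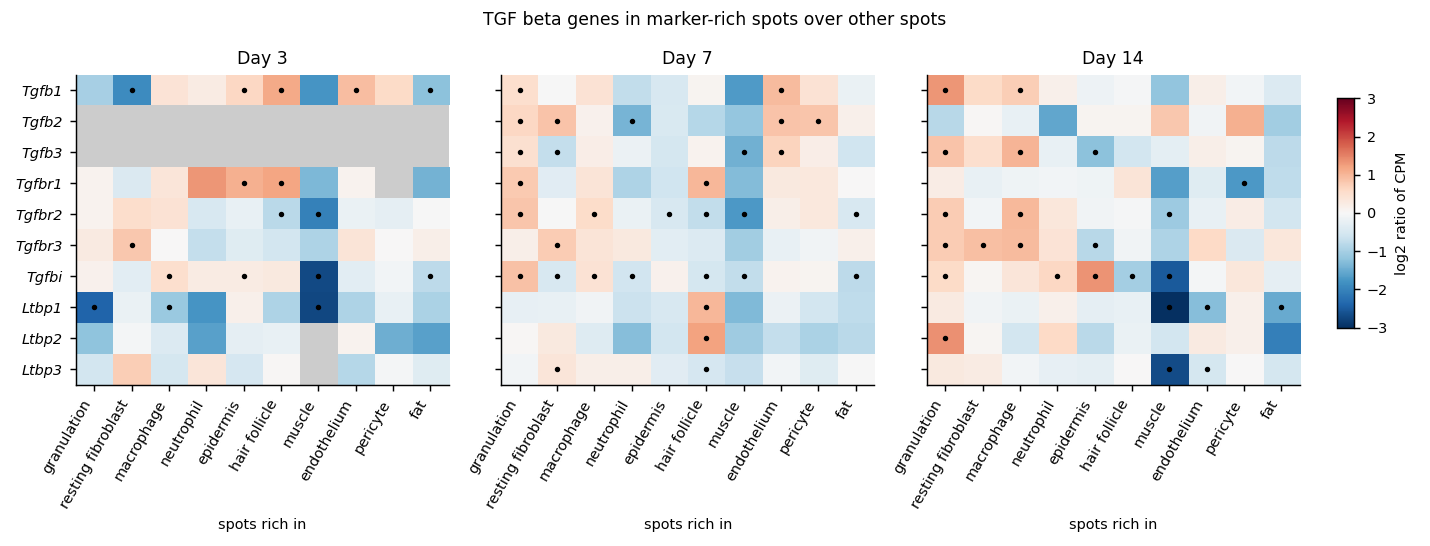
Log2 ratio of CPM in the 10% of spots richest in each of 10 cell type lists (x axis) over the other spots for each gene (y axis), by day (panels), with colour limits at -3 and 3, black points where the 95% interval excluded 0, and grey where a gene had under 50 UMIs or none in the rich spots. Tgfbr3 is red with a black point in resting fibroblast-rich spots on each day, and on Day 14 also in macrophage-rich and granulation-rich spots. Muscle-rich columns are mostly blue.

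Genes with the most similar profile were sought over 15 bins, 5 equal classes of spots by collagen share in each of the 3 sections, by Pearson r of log2(CPM + 1) among 7943 genes with at least 200 UMIs. The bins share sections and depths and were formed by collagen share. Likeness to collagen genes is thus not independent of how the bins were made, and r is a description. Tgfb1 was most like Mmp9 (r = 0.960), Spp1 (0.955) and Apbb1ip (0.952). Tgfb2 was most like Obsl1 (0.923), Lhfp (0.920) and Mfap2 (0.910), and Tgfb3 like Dact1 (0.935), Rian (0.929) and Sorcs2 (0.925). Among receptors, Tgfbr2 was most like the collagen gene Col5a2 (0.976), the collagen chaperone gene Serpinh1 (0.971) and Nucb1 (0.971). Tgfbr1 was most like Tagln2 (0.954), Kpnb1 (0.947) and Myh9 (0.947), and Tgfbr3 like Creg1 (0.953), Fcgrt (0.938) and the macrophage complement gene C1qc (0.938). Tgfbi was most like Gusb (0.955), Ctla2a (0.944) and Ugcg (0.924). Ltbp1 had the least close neighbours, Pkd1 (0.894), Marveld1 (0.881) and Clec11a (0.871). Ltbp2 was most like Nfam1 (0.941), Cd74 (0.928) and Atrnl1 (0.926), and Ltbp3 like Dtx3 (0.950), Cnot10 (0.943) and Lzts2 (0.943).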

How the data were processed

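The deposited values were raw UMI counts per gene and spot, which per the labels the authors made with Space Ranger 1.3.0 on mm10 (the same build as GRCm38), together with the spot positions and the mark for spots under tissue. The annotation behind the counts is not given in the sources used here. 32158 of 32285 gene identifiers were found in the GENCODE annotation used for positions. The files hold 4992 spots per slide, and each section is 1 sample, grouped by its labelled day. UMIs of marked spots were summed per section and given as CPM with exact Poisson intervals, shares with Clopper-Pearson intervals and ratios with exact conditional binomial intervals, all at 95% (scipy 1.17.1, numpy 2.4.6, Python 3.11.15). UMIs remove amplification copies, and the intervals cover counting error only. Genes needed 50 UMIs and a 1.5-fold difference to be counted. Place within a section used spots with at least 500 UMIs.

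Genes named from the pathway lists were those with the highest and lowest ratio in each role for Day 7 over Day 3 and Day 14 over Day 7, and for likeness the 3 genes with the highest r. A gene that this rule names among the targets is not reported here. The genes and lists were chosen with earlier results of these data known, and the promoter motifs and list-scaled ligand values after the levels were seen. Alternatives were edgeR 4.0.16 TMM factors and DESeq2 1.42.0 size factors on the pooled counts (R 4.3.3), other totals, spot weights, depth minimums and cut-offs, and all spots of the slide. The intervals of ratios between days were tested on simulated Poisson counts, without variation between sections. The simulation did not cover the other steps.

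Of the lists used for marker-rich spots, the hair follicle list summed to 208, 116 and 5669 CPM on Day 3, Day 7 and Day 14. In the same order, endothelium was at 666, 667 and 233 CPM and pericytes at 538, 765 and 419 CPM. Fat was at 7224, 7269 and 1935 CPM, and resting fibroblasts at 5770, 4828 and 3866 CPM.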

Additional observations from a re-analysis of the deposited data

Results flagged for a closer look

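Ltbp1 was flagged because its log2 difference between collagen-rich and other spots had opposite signs between days with intervals on either side of 0, at 1.76 on Day 3, -0.47 on Day 7 and 0.84 on Day 14. Tgfbi was flagged for the same reason in neutrophil-rich spots, at -0.57 on Day 7 (95% interval -1.02 to -0.14) and 0.61 on Day 14 (0.25 to 0.96). The neutrophil list had 732 UMIs on Day 7, of which G0s2, a gene that fat also expresses, gave 378, with Retnlg and Trem1 at 0 and Cxcr2 at 1. It had 498 UMIs on Day 14, of which Il1r2 gave 175, with Trem1 at 0 and Cxcr2 at 2. The differences between days were not tested, since each day is 1 section. No group held enough samples for a check of single samples.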

How the results depend on the processing

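Of 210 values for ratios between days, 181 moved by no more than their counting interval, 27 moved beyond it and 2 ratios past 1.5-fold changed direction. Both were Ltbp3 under the mean of spot CPM, at -0.081 (Day 7 over Day 3) and -0.097 (Day 14 over Day 3), where 1 UMI in a spot of 16 UMIs weighed as 62500 CPM. Of ratios within 1.5-fold, 8 values changed sign. Under the mean of spot CPM these were Tgfbr1, at -2.60 on Day 7 and -2.79 on Day 14 (each against Day 3), with 1 UMI in a spot of 8 UMIs, and Tgfb2, at 0.92 on Day 14 against Day 3. Tgfb2 on Day 14 against Day 3 also changed sign with all spots (0.45). It did so too under the mean of spot CPM over spots of at least 500 UMIs (0.58). The others were Tgfbr1 on Day 14 against Day 3 under TMM (-0.085) and DESeq2 size factors (-0.12), and Ltbp2 for Day 14 over Day 7 with all spots (0.11). With the mean taken over spots of at least 500 UMIs, an alternative added after seeing the data, no ratio past 1.5-fold changed direction. DESeq2 size factors lowered Day 14 values by -0.13 against Day 3 and TMM by -0.10. The count of members lower on Day 7 than on Day 3 was 1 under the mean of spot CPM (Tgfbr1, and none of Tgfb1, Tgfbi and Ltbp2), and that of members lower on Day 14 than on Day 7 was 2 with all spots of the slide, where the Tgfb2 share of Day 14 was 25.5%. For collagen-rich spots, 206 of 210 values stayed within their intervals, and no ratio past 1.5-fold changed direction. Some smaller ratios took both signs over the alternatives. On Day 3 these were Tgfb3 (-1.05 to 0.86, under 50 UMIs) and Tgfbr1 (-0.37 to 0.08). On Day 7 they were Tgfbr1 (-0.01 to 0.49) and Ltbp3 (-0.03 to 0.21), and on Day 14 Tgfb2 (-0.88 to 0.02). The number of members lower was 1 with the top 10% of spots on Day 3 and on Day 14, and on Day 7 it was 1 with at least 1000 UMIs per spot and 2 when ranked within 3 depth classes. The number higher on Day 7 was 4 with the top 10% and 1 within 3 depth classes. Over the alternatives, the number higher ranged from 4 to 6 on Day 3 and from 5 to 7 on Day 14. For marker-rich spots, 535 of 553 values stayed within their intervals. With the top 20% of spots, 4 ratios past 1.5-fold changed sign. These went to 0.14 for Tgfb2 (granulation, Day 14), 0.12 for Ltbp2 (epidermis, Day 14), 0.23 for Ltbp1 (hair follicle, Day 3) and 0.00155 for Tgfbr3 (muscle, Day 14). Sign changes of smaller marker ratios were not listed. Except where stated, the cause was not tested. No paired analysis was possible because each day has 1 section, and no section could be left out.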
